A study of Saccharomyces cerevisiae with 23 samples.

Results

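Tup1K270R cells were compared with wild-type cells after 60 min in 1.2 M sorbitol, on 4 of the 23 two-color arrays of the series. The members are the arrays of both strains at that time in replicates A and B, taken by their labels and not by any measured value. Each array set RNA of the stressed culture against RNA of the unstressed wild-type culture of its own replicate, and a difference is the mutant's log2 ratio minus the wild-type's log2 ratio within a replicate. Samples carried Cy3 in replicate A and Cy5 in replicate B, so dye and replicate cannot be told apart.

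Per the strain list of the study, both strains are BY4741 derivatives (met15, his3, ura3 and leu2 mutations) with a 6His-FLAG tag on SMT3, the gene for SUMO, marked with HIS3MX6. Both carry a CYC8 gene re-integrated at the deleted locus with LEU2, and a TUP1 gene re-integrated likewise with URA3, either wild type or K270R, in which arginine replaces 1 lysine. Cultures were grown in yeast complete medium, and the replicates are isolates obtained in separate transformations, so each replicate of the mutant is 1 isolate. Wild type at 0 min is the reference itself, and its ratio is 0 by construction. The 7 genes expressed in MATa haploids that were checked (MFA1, MFA2, STE2, STE6, BAR1, AGA2, ASG7) were well above background on all 4 arrays. So were 3 of 4 MATalpha genes, with MF(ALPHA)1 on 2 of the 4. In the sample channel, the MATa genes lay between signal percentiles 11.4 and 88.9 of an array. The MATalpha genes lay between 1.92 and 27.5, so the flag alone does not separate the types.

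Tup1 and Cyc8 form a corepressor that DNA-binding repressors bring to their target promoters, where it keeps genes for alternative carbon sources, stress defense, flocculation and mating type silent. Under hyperosmotic stress the kinase Hog1 acts on the repressor Sko1 at osmotic genes, which are then transcribed strongly for a short time. SUMO is a small protein attached to lysines. The K270R change removes the lysine at which Tup1 is sumoylated, so the comparison asks how transcript levels late in the stress response depend on that lysine.

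Of the 6256 yeast probes, 6067 gave a value on the 22 arrays of the fit and lay outside the region from YDR211W to YDR261C. limma called 0 of them at an adjusted p under 0.05, a share of 0%, and the smallest adjusted p was 0.998. At an unadjusted p under 0.05 it passed 69 probes that were higher in the mutant (1.14%) and 102 that were lower (1.68%). By the methods' cutoff, a mean difference of 0.65 on the log2 scale (1.57-fold), 15 probes were higher (0.247%) and 11 were lower (0.181%). Both replicates passed the cutoff for 5 higher probes (0.0824%) and 3 lower probes (0.0494%). No single gene named here therefore passed the test after adjustment, and the values that follow describe these 4 arrays. The spread behind a limma p comes from the replicates of all 11 groups, so it is not the SD of the 2 differences given for some genes below.

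The replicates differed in what they showed. Across the 6067 probes, the differences in A and in B correlated at r = −0.219 (Spearman −0.278), as a description over probes of shared arrays. Their SD was 0.244 in A and 0.204 in B. From the deposited log ratios, r was −0.378 (Spearman −0.436), with SDs of 0.466 and 0.292. The sign was shared by 39.3% of probes, with 18.5% higher in both replicates and 20.9% lower in both, while 29.9% were higher in A and lower in B and 30.7% were lower in A and higher in B. At 30 min the same correlation was −0.00501 and at 0 min it was −0.0631. Replicate A alone placed 73 probes higher and 59 lower by at least 0.65, and replicate B alone placed 49 and 48. The wild-type array of replicate A lay on another slide than the mutant array, whereas both arrays of replicate B shared a slide, so only the values of B are within a slide. The part of slide and dye in the differences was not tested gene by gene. An array of unstressed wild type against unstressed wild type, from the other replicate, had an SD of 0.222 over the same probes.

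**Figure D1:**
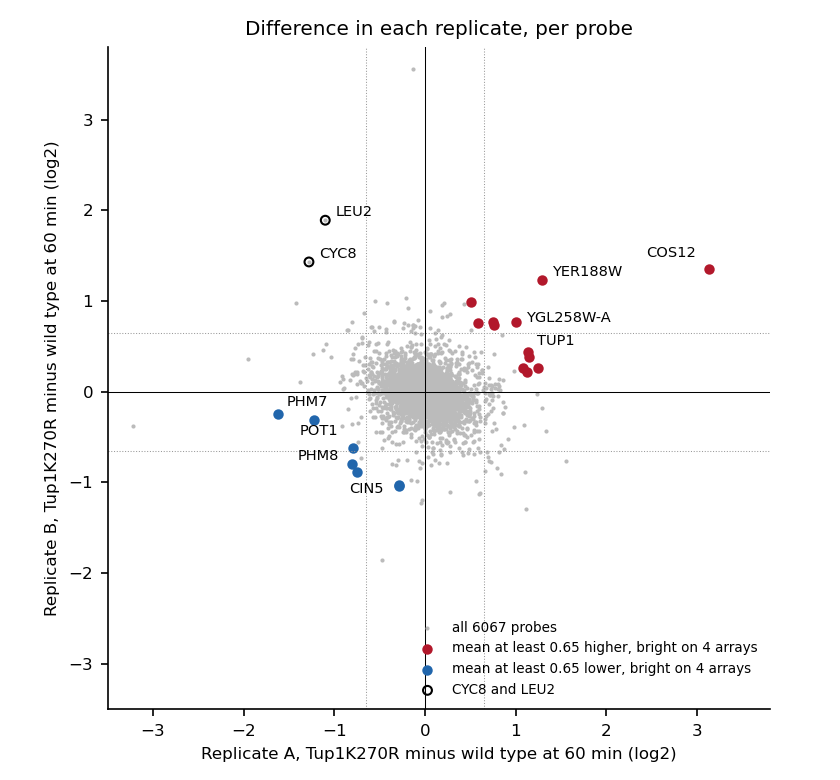
Tup1K270R minus wild type at 60 min (log2) in replicate A (horizontal axis) and replicate B (vertical axis), 1 point per probe, with dotted lines at 0.65 and −0.65. Red and blue points passed 0.65 in the mean and were well above background in the sample channel of all 4 arrays; COS12 stands apart at 3.13 and 1.35, while CYC8 and LEU2 lie in opposite directions in the 2 replicates.

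TUP1 itself was higher in the mutant. Its log2 ratio to unstressed wild type was 0.12 and 0.17 in wild type A and B, and 1.26 and 0.61 in the mutant. The difference was 1.14 in A and 0.44 in B, a mean of 0.79 ± 0.50 (SD of the 2 differences), with an unadjusted p of 0.0939 in limma. At 30 min it was 1.46 and 0.33, and at 0 min the mutant stood at 1.20 and 0.65. The probe cannot tell the K270R allele from the wild-type allele, so it does not check the labels. URA3, the marker beside TUP1, differed by −0.02 and −0.06.

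CYC8, which encodes the partner of Tup1 and is wild type in both strains, differed in opposite directions. It was lower by 1.28 in replicate A (0.13 in wild type, −1.16 in the mutant) and higher by 1.43 in replicate B (−0.23 and 1.20). LEU2, its marker, had the same signs, with −0.80 in wild type and −1.90 in the mutant in A, and −1.23 and 0.66 in B. The same held at the earlier times, with CYC8 in the mutant at −1.17 and 1.33 at 0 min. The replicates thus disagree at every time on a gene of the same sequence in both strains.

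The region from YDR211W to YDR261C also set mutant isolate A apart. Its 50 probes had a median difference of −0.97 in replicate A, where 1 probe was higher, and of −0.01 in replicate B, where 21 were. Against the reference, the median was −0.86, −0.59 and −0.91 in mutant A at 0, 30 and 60 min, and between −0.07 and 0.11 on the other 19 arrays of the fit. The methods describe the region as raised in this strain and replicate, which is the opposite direction to the one found here. The direction used here follows the dyes in the labels. On the same mutant A array at 60 min it puts GPD1, GPP2 and STL1, glycerol genes known to be induced by osmotic stress, at 4.47, 5.68 and 4.69 above the reference. These probes were left out of the fit, as in the methods.

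By the smaller of the 2 differences, the largest shared by both replicates were higher levels of COS12 and YER188W, genes near chromosome ends. COS12, the outermost protein-coding gene at the left end of chromosome VII, encodes a member of a family of membrane proteins that help to sort surface proteins to the vacuole. Its log2 ratio was 1.27 and 0.82 in wild type A and B, and 4.40 and 2.17 in the mutant. The difference was 3.13 (8.77-fold) in A and 1.35 (2.55-fold) in B, a mean of 2.24 ± 1.26 (SD). Its unadjusted p was 0.00422 and its adjusted p 0.998 in limma. The sample channel was well above background on all 4 arrays, the reference channel on 3. The difference was there without sorbitol, at 3.94 and 1.93 at 0 min, and stood at 3.81 and 1.69 at 30 min. With another background correction, normexp, the mean at 60 min was 1.25.

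Other subtelomeric genes were also higher at every time. YER188W, at place 5 from the right end of chromosome V, had ratios of 0.17 and 0.14 in wild type and 1.46 and 1.36 in the mutant, a difference of 1.29 and 1.23. Its neighbour YER187W differed by 0.51 and 0.99. The unadjusted p in limma was 0.0862 for YER188W and 0.149 for YER187W. YGL258W-A, at place 6 from the left end of chromosome VII, had 0.79 and 0.30 in wild type and 1.79 and 1.07 in the mutant, a difference of 1.00 and 0.77. No overlap between strains was seen for these 3 genes, as for all of the 15 highest. The ranking by the smaller difference favours such separation, and its share over all probes was not counted. The differences of YER188W and YGL258W-A at 30 min were 1.62 and 1.07, and 2.01 and 0.34, and at 0 min they were 1.27 and 0.91, and 1.65 and 0.75. With normexp the means at 60 min were 0.79 for YER188W and 0.35 for YGL258W-A.

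COS8 stood at 0.27 and 0.39 in wild type and at 1.03 and 1.12 in the mutant, a difference of 0.76 and 0.73. All 11 COS genes tested were higher in both replicates, against 18.5% of all probes. Their differences ranged from 0.13 to 2.24 in the mean, with a median of 0.33, beside −0.01 over all probes. COS1 differed by 0.62 and 0.44, COS4 by 0.40 and 0.36, and COS6 by 0.17 and 0.09. The COS genes are close in sequence, as is YIR043C, a related locus that differed by 0.75 and 0.77, and their probes may share transcripts, so the 11 values are not 11 independent measurements. The p of COS8 in limma was 0.23 before adjustment, from an SE of 0.60 that the fit draws from the replicates of all 11 groups. For YIR043C it was 0.183.

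**Figure D2:**
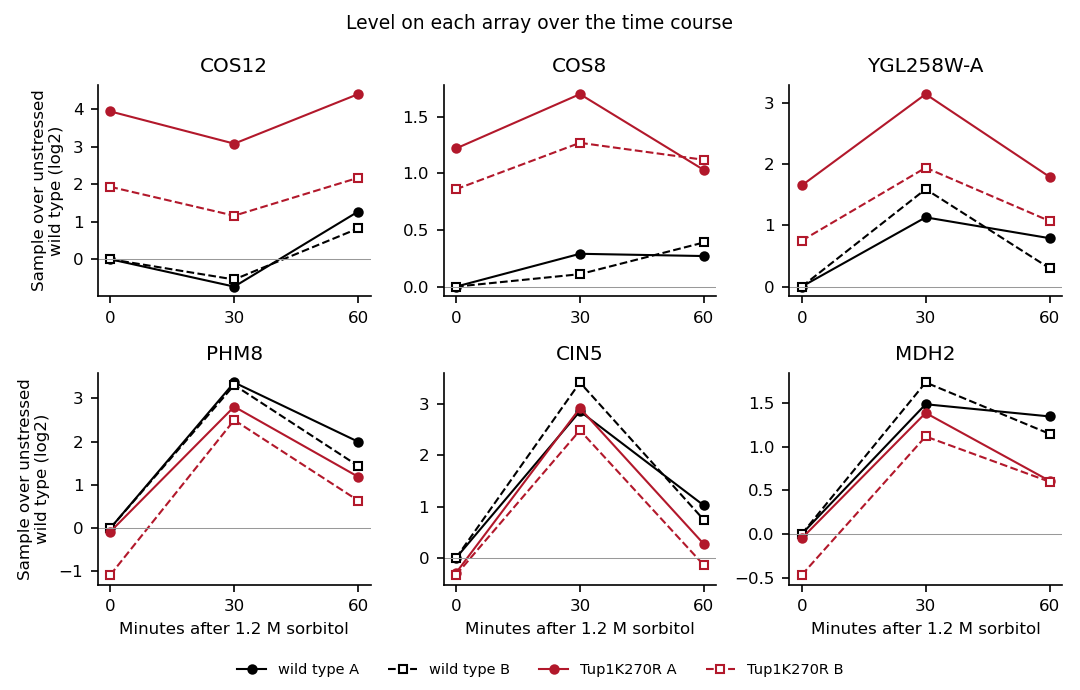
Log2 ratio of each array to unstressed wild type of its replicate (vertical axis) at 0, 30 and 60 min in sorbitol (horizontal axis), wild type in black and Tup1K270R in red, replicate A with filled circles and B with open squares; wild type at 0 min is the reference and is 0 by construction. COS12, COS8 and YGL258W-A were higher in the mutant at every time, and PHM8, CIN5 and MDH2 were lower at 60 min in both replicates.

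Among the 438 probes for the outermost 15 protein-coding genes of each chromosome end, 155 (35.4%) were higher in both replicates and 63 (14.4%) were lower in both. Of the 15 probes at least 0.65 higher, 11 had a place in the gene order and 9 of these were among the outermost 15, which hold 7.81% of the probes with a place. Of the 11 lower ones, 8 had a place and 1, POT1, was among them. At places 1 to 5, 78 of 143 probes (54.5%) were higher in both replicates and 11 (7.69%) lower in both, and the median difference was 0.26 in A and 0.05 in B. At places 6 to 10 the shares were 30.2% and 14.8%, and at places 11 to 15 they were 21.9% and 20.5%. From place 16 inward neither share left the range from 16.5% to 22.1%. Families whose probes may share transcripts, such as the COS genes and the PAU genes below, enter the shares of the outermost places.

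Within the outermost genes, families differed in how the replicates compared. The 7 Y' helicase genes, copies of a helicase gene in the repeats next to telomeres, were higher by 0.72 to 0.81 in A and between −0.04 and 0.08 in B. Their probes cannot separate the copies. Of 24 PAU genes, which encode cell wall mannoproteins, 21 (87.5%) were higher in both replicates. The share was 18.5% of all probes and 35.4% of those for the outermost 15 genes. The PAU differences were small, with medians of 0.12 and 0.09 and none past 0.65. Many PAU probes had nearly the same values and may share transcripts, so the 24 values are not 24 independent measurements. IMA2 and IMA3, isomaltase genes, were higher by 0.41 and 0.44, and by 0.55 and 0.38. VTH1, which encodes a relative of a vacuolar sorting receptor, was at −0.54 and −0.58 in wild type and at 0.00 and −0.15 in the mutant, a difference of 0.54 and 0.44 with an unadjusted p of 0.000505.

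The subtelomeric THI5 family, which makes the pyrimidine of thiamine, and the neighbouring SNZ and SNO genes for vitamin B6 were likewise slightly higher. THI12 stood at 0.31 and 0.30 in wild type and 0.59 and 0.74 in the mutant, and SNZ3 at −0.14 and −0.24 beside 0.27 and 0.12. In the list of 24 thiamine and vitamin genes, 5 passed an unadjusted p of 0.05 in limma in the higher direction, against 1.14% of all probes. All 5 were copies in these families (THI5, THI11, THI12, SNZ2, SNZ3). Probes of such copies may share transcripts, so the 5 are not independent measurements. Over the whole list, 10 were higher in both replicates and 7 lower in both, with a median of 0.04. Among the lower ones, THI4, for the thiazole of thiamine, differed by −0.32 and −0.28.

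**Figure D3:**
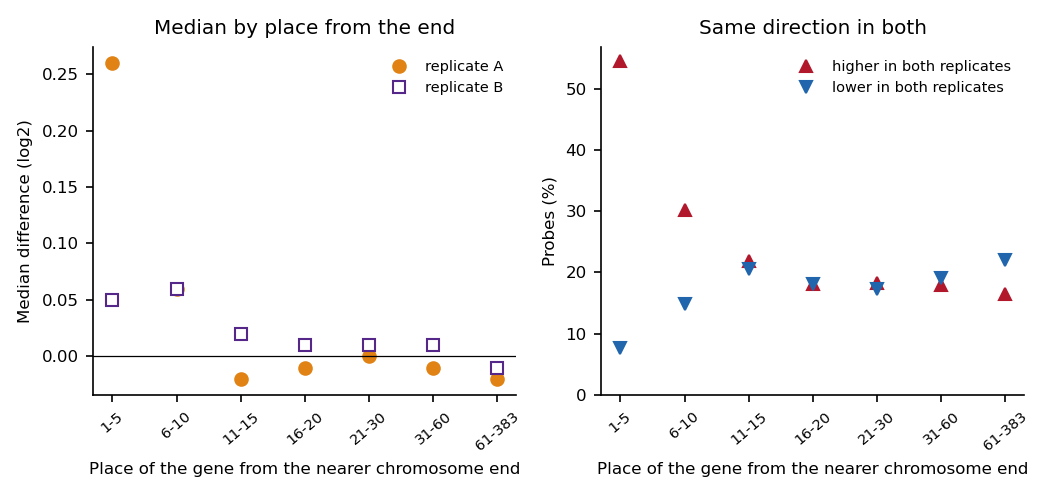
Left, median difference between Tup1K270R and wild type at 60 min (log2, vertical axis) in replicate A (filled) and B (open) by the place of a gene from the nearer chromosome end (horizontal axis); right, share of probes (%) higher or lower in both replicates. At places 1 to 5, 54.5% of 143 probes were higher in both replicates and 7.69% lower.

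Away from the ends, YBL029W, a gene of unknown function, was at −0.36 and −0.35 in wild type and at 0.15 and 0.33 in the mutant. Its difference of 0.51 and 0.68 had the lowest p of the ranked genes (0.000398 unadjusted). At 30 min its difference was −0.08 and 0.09. With normexp the mean at 60 min was 0.16. The test of the 60 min against the 30 min difference called 0 of 6067 probes at an adjusted p under 0.05, with 222 at an unadjusted p under 0.05, so no gene is shown to differ between these times. The test against 0 min called 0 as well, with 147 unadjusted and a smallest adjusted p of 0.0931.

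On the lower side, most of the leading genes stood above the reference in wild type after sorbitol. PHM8, a phosphatase gene of the phosphate regulon that acts on nucleotides and lysophosphatidic acid, was at 2.00 and 1.44 in wild type and 1.19 and 0.64 in the mutant. The difference was −0.81 in A and −0.80 in B, a mean of −0.81 ± 0.01 (SD), with an unadjusted p of 0.000819 in limma. At 30 min, when wild type stood at 3.37 and 3.31, the difference was −0.56 and −0.81. Without stress, mutant A was at −0.08 and mutant B at −1.08. With normexp the mean at 60 min was −0.51.

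CIN5 encodes a basic leucine zipper factor of the osmotic response that can bring Tup1-Cyc8 to DNA. It stood at 1.02 and 0.74 in wild type and at 0.27 and −0.14 in the mutant, a difference of −0.75 and −0.89 (mean −0.82 ± 0.09 SD, unadjusted p = 0.002 in limma). At 30 min its difference was 0.05 in A and −0.94 in B, and at 0 min it was −0.29 and −0.33. Among the other 17 repressors of the list that were tested, none passed 0.65 in the mean. OPI1, the repressor of phospholipid synthesis, differed by −0.26 and −0.23, RFX1, the repressor of DNA damage genes, by −0.28 and −0.16, and NRG1, a glucose repressor, by −0.61 and −0.07. SKO1 differed by 0.00 and 0.06.

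MDH2, the cytosolic malate dehydrogenase of gluconeogenesis, was at 1.35 and 1.15 in wild type and at 0.61 and 0.60 in the mutant. The difference was −0.74 and −0.55, a mean of −0.64 ± 0.13 (SD) with an unadjusted p of 0.000618 in limma. POT1, the thiolase of fatty acid oxidation in peroxisomes, was at 3.50 and 2.91 beside 2.72 and 2.30, with an unadjusted p of 0.179 in limma. In the list of 25 genes of gluconeogenesis, the glyoxylate cycle and alternative carbon use, however, 15 (60%) were lower in A and higher in B, beside 30.7% of all probes, and 7 (28%) were lower in both, beside 20.9%. ADH2, the alcohol dehydrogenase that consumes ethanol, differed by −1.38 in A and 0.11 in B, and ALD6, which makes acetate, by −0.56 and 0.67.

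**Figure D4:**
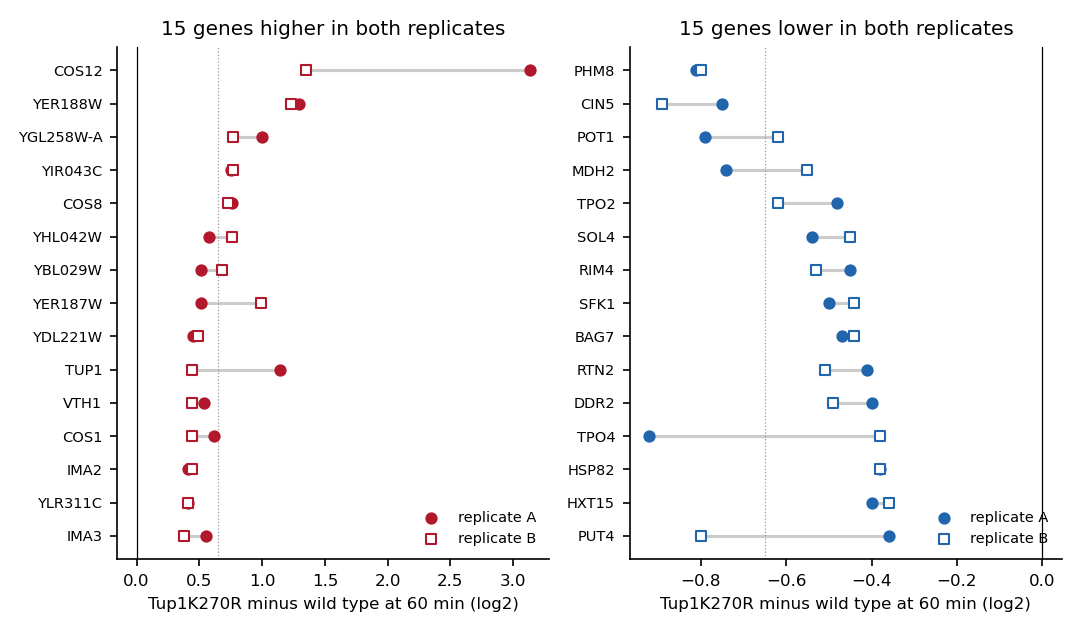
Tup1K270R minus wild type at 60 min (log2, horizontal axis) for the 15 genes highest and the 15 genes lowest in both replicates, ranked by the smaller of the 2 differences, with replicate A filled and B open and the dotted line at 0.65 in size. COS12 was higher by 3.13 and 1.35, and PHM8 was lower by 0.81 and 0.80.

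Of the 15 lowest genes, 13 were above the reference in both wild-type arrays at 60 min and 9 by at least 0.65. The wild-type arrays enter both values, so this count is not independent of the ranking. It was also not set against the same count over all probes. RTN2, a reticulon gene, was at 2.80 and 2.80 in wild type and at 2.39 and 2.30 in the mutant. DDR2, a small stress protein gene, was at 2.30 and 3.20 beside 1.91 and 2.72. SOL4, a gene of the pentose phosphate pathway, was at 2.39 and 1.65 beside 1.85 and 1.19. PUT4, the proline permease gene, was at 3.46 and 3.39 beside 3.10 and 2.60. SFK1, a plasma membrane protein gene, was at 0.05 and 0.23 beside −0.45 and −0.21, and its difference at 30 min was −0.45 and −0.55. TPO4, a polyamine transporter gene that stood below the reference in wild type, was at −1.35 and −2.23 beside −2.27 and −2.61.

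The chaperone genes were slightly lower as a group. Of 22 tested, 13 (59.1%) were lower in both replicates, against 20.9% of all probes, and 1 was higher in both. Their median difference was −0.12, and none passed 0.65. HSP82, for Hsp90, was at 2.55 and 1.94 in wild type and 2.17 and 1.56 in the mutant, −0.38 in each replicate. SSA4, for an inducible Hsp70, differed by −0.49 and −0.27, and HSP104, for the disaggregase, by −0.28 and −0.35. HSP60, the mitochondrial chaperonin gene, was higher by 0.11 and 0.20.

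Genes of phospholipid synthesis stood below the reference in wild type (medians −0.96 and −1.17) and were mostly lower still in the mutant. Of 16 tested, 9 (56.2%) were lower in both replicates and 6 had an unadjusted p under 0.05 in that direction, against 1.68% of all probes. ITR1, the inositol transporter gene, was at −1.74 and −1.83 in wild type and −2.05 and −2.22 in the mutant. CHO2, which starts the methylation of phosphatidylethanolamine, was at −1.59 and −1.59 beside −1.89 and −1.97. CHO1, CKI1, PSD1 and OPI1 were the remaining 4, with means between −0.30 and −0.20. INO1, the inositol synthase gene, was higher by 0.24 in A and lower by 0.57 in B. At 30 min the median difference of the 16 was 0.01 and at 0 min it was −0.02.

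Proteasome subunit genes, at medians of 0.69 and 0.58 in wild type, had 22 of 35 members (62.9%) lower in both replicates and 0 higher in both, beside 20.9% and 18.5% of all probes, with medians of −0.18 in A and −0.02 in B. The lowest was RPT3, a subunit of the base, at −0.39 and −0.06. The size in B was thus close to 0 for most of them.

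Many osmotic genes differed in opposite directions in the 2 replicates. GPD1, which makes glycerol 3-phosphate, stood at 5.08 and 4.41 in wild type and 4.47 and 4.78 in the mutant, a difference of −0.61 and 0.37, and GPP2, the phosphatase of the next step, differed by −0.39 and 0.22. STL1, the glycerol importer gene, differed by −0.60 and 0.22. Of 11 glycerol genes, 8 were lower in A and higher in B, as were 8 of 15 targets of Hog1 and Sko1 and 6 of 9 trehalose genes, beside 30.7% of all probes. Lower in both were 2, 4 and 3 of these genes, and higher in both 0, 1 and 0. The 4 targets were RTN2, HSP12, CTT1 and MSC1, of which CTT1, the catalase gene, differed by −0.51 and −0.03 and MSC1 by −0.24 and −0.10. HSP12, a membrane-protecting stress gene, differed by −0.24 and −0.20.

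The same opposition ran through the genes of the whole wild-type response. Of 507 probes that were raised by at least 1 log2 unit on both wild-type arrays at 30 min, 297 (58.6%) were lower in A and higher in B at 60 min, with medians of −0.25 and 0.06. Of 291 probes lowered by as much, 193 (66.3%) were higher in A and lower in B, with medians of 0.24 and −0.08. Over all other probes both medians were 0.00. In replicate A the raised set had a median of 0.80 in wild type and 0.52 in the mutant, and in B it had 0.54 and 0.61.

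Growth and division genes held the largest opposed groups. Of 65 ribosome biogenesis genes, 58 (89.2%) were higher in A and lower in B, beside 29.9% of all probes, with medians of 0.28 and −0.12. Of 13 daughter cell separation genes, 12 were higher in A and lower in B, with medians of 0.46 and −0.23. AMN1, a gene of mitotic exit control, differed by 0.92 and −0.52, and DSE4, a daughter-specific glucanase gene, stood at −1.25 and −0.75 beside −0.38 and −0.92. Of 19 cyclin and cell cycle genes, 15 went the same way, among them the mitotic cyclin genes CLB1 (0.79 and −0.84) and CLB2 (0.82 and −0.67). In these 3 groups the medians of the mean differences were 0.09, 0.06 and −0.02, while the medians in A and B had opposite signs.

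**Figure D5:**
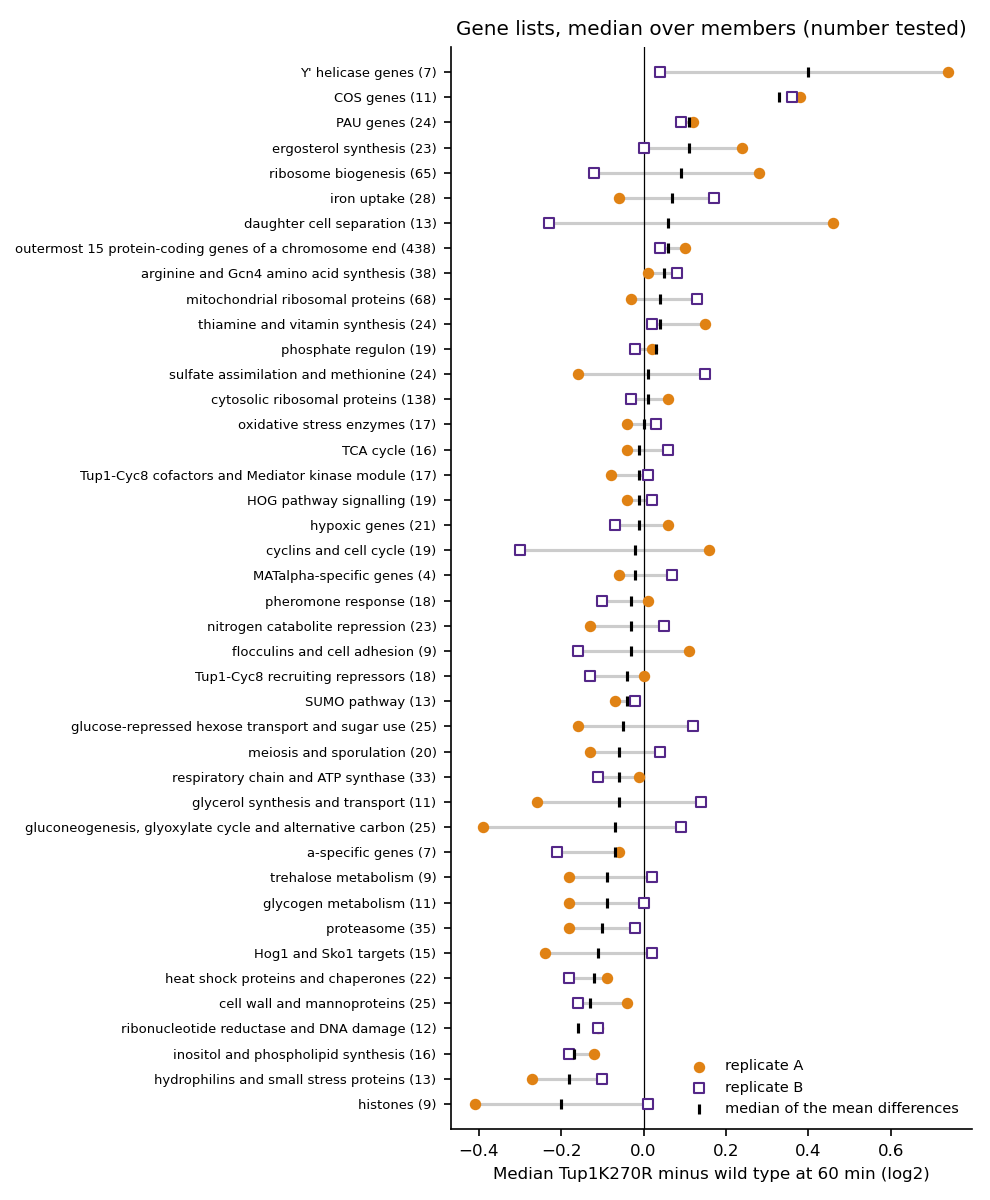
Median difference between Tup1K270R and wild type at 60 min (log2, horizontal axis) over the members of each of 42 gene lists, in replicate A (filled), in replicate B (open) and for the mean of both (bar), with the number of members tested in brackets. The COS genes lie at 0.38 and 0.36, whereas the daughter cell separation genes lie at 0.46 in A and −0.23 in B.

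Of the glucose-regulated genes named by the study, HXT6 and HXT7 were lower in both replicates, and neither passed the test. HXT6 and HXT7, for nearly identical high-affinity hexose transporters, differed by −0.36 and −0.44, and by −0.33 and −0.43. Their means of −0.40 and −0.38 were −0.05 and −0.59 from the deposited log ratios, and −0.75 and −0.80 with the slide as a further block. HXT1, for the low-affinity transporter, differed by −0.66 in A and 0.29 in B, and GSY1, for glycogen synthase, by 0.07 and −0.01. Of 25 genes of hexose transport and sugar use, 6 (24%) were higher and 6 (24%) lower in both replicates, beside 18.5% and 20.9% of all probes. Lower in A and higher in B were 11 (44%), beside 30.7% of all probes. The genes for the SUMO pathway (13 tested, median −0.04) and for HOG signalling (19 tested, median −0.01) were near 0.

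The other mutants share the same wild-type arrays at 60 min, and their values are set beside these as a description. Of the 15 highest genes, 9 had a mean difference below 0 in cells with Cyc8-4KtoR and 10 in cells with both changes. Of the 15 lowest genes, 4 did in each. The share below 0 over all probes was not counted, so nothing is concluded from these counts. COS8 differed by 0.76 and 0.73 in Tup1K270R cells, by −1.52 and −0.26 with Cyc8-4KtoR and by −1.39 and −0.06 with both. The means of COS12 were 2.24, −0.60 and −0.30, and those of YGL258W-A 0.89, −0.66 and −0.64. YER188W had opposite signs in the replicates of the other mutants (−1.11 and 0.83 with Cyc8-4KtoR), and IMA3 was higher in each, at means of 0.46, 0.41 and 0.34. PHM8 was at −0.81, 0.47 and 0.65, and CIN5 at −0.82, 0.18 and 0.15. YBL029W was higher in each, by 0.60, 0.47 and 0.77.

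Several probes past the cutoff rested on 1 replicate or on dim spots. PHM7, a gene of unknown function, was at −1.62 in A and −0.25 in B, and GID10, for a ubiquitin ligase receptor, at −1.22 and −0.31. DDI3, a cyanamide hydratase gene, was at 1.15 and 0.38. The nearly identical CUP1-1 and CUP1-2, for metallothionein, were at −0.29 in A and −1.04 and −1.03 in B. Of the 15 higher probes, 12 were well above background in the sample channel of all 4 arrays, and of the 11 lower ones 7 were. YGR176W, the third probe lower by 0.65 in both replicates, and SET6 were not well above background on any of the 4, so no size is given for them.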

How the data were processed

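Total RNA was measured on two-color Agilent yeast arrays of 6256 probes, each printed as 2 spots, in 4 strains at 0, 30 and 60 min of sorbitol. Per the file headers, spots were read by Feature Extraction 10.5.1.1. The deposited files give background-subtracted and median spot intensities for each channel and log10 ratios of Cy5 over Cy3, which had passed through detrending and dye normalization. The authors' series matrix was not used, since its values equal those log ratios turned to sample over reference. The genome build of the array design differs from the R64 assembly used for names, so no coordinates are given; 5636 of 6067 probes matched a systematic name and 5610 had a place in the order of protein-coding genes.

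Here, log2 ratios of the background-subtracted intensities were normalized by loess within each array, without control spots and outlier spots (4 to 13 on the 4 arrays), given the sign of sample over reference, and then averaged per probe. Of the probes' spots, 96.7% to 97.1% were well above background in both channels of the 4 arrays, and 0 were saturated. The number of arrays limits the precision. limma 3.58.1 in R 4.3.3 was fitted on 22 arrays in 11 groups with the replicate set as a block (lmFit, eBayes, Benjamini-Hochberg over all probes, 10 residual degrees of freedom). The block follows the labels, since a replicate set shares its reference culture and dye orientation. Deviations from the group means correlated between same-lettered groups at 0.0914 to 0.732 over 55 pairs of groups, and at 0.276 between the groups compared. The fit was tested on simulated data with known changes. Tables and plots were made in Python 3.11.15 (numpy 2.4.6, pandas 2.3.3 and matplotlib 3.10.9).

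The comparison, the gene lists and the alternatives were chosen with earlier results of these data known. The genes named are the 15 highest and 15 lowest among probes well above background in the sample channel of all 4 arrays, ranked by the smaller of the 2 differences of shared sign, then in each of 42 lists the members past 0.65 (up to 4) or otherwise the 2 with the largest mean difference, and TUP1, CYC8, URA3, LEU2, HXT1, HXT6, HXT7 and GSY1. Other list members, and probes past 0.65 outside the ranking, were named after their values were seen. A result for 1 list member is not reported here. Alternatives were other starting values (the log10 ratios, normexp with offset 50, median centring, removal of a loess surface of span 0.3), a filter on dim probes, the slide as a block, subsets of arrays, each replicate or array left out, the region kept in and another cutoff. Labels of 3 double mutant arrays contradict each other, and the titles were followed.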

Additional observations from a re-analysis of the deposited data

Results flagged for a closer look

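A set of 6 genes differed from wild type in 1 direction in both replicates at 60 min and in the opposite direction in both at another time. The limma test of each such difference between times missed an adjusted p of 0.05, with values of 0.995 against 30 min and 1 against 0 min. HXT6 and HXT7 were lower at 60 min and higher at 0 min, with differences between the times of −0.75 and −0.70 on the log2 scale. HXT15, another hexose transporter gene, was lower at 60 min (−0.40 and −0.36) and higher at 30 min (0.19 and 0.29), a difference of −0.62. CHO2 went from 0.12 and 0.01 at 0 min to −0.30 and −0.38, a difference of −0.40. SPS2, a sporulation gene, went from 0.40 and 0.20 at 30 min to −0.55 and −0.01, a difference of −0.58. URA3 also met this description, with −0.08 against 30 min and −0.36 against 0 min, from differences at 60 min of only −0.02 and −0.06.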

How the results depend on the processing

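limma called 0 probes at an adjusted p under 0.05 in 14 of 16 alternatives. Leaving out a replicate or an array gave 0 to 1 calls: the call, made without replicate B and without wild-type replicate B, was YBR103C-A, which was well above background on 3 of the 4 arrays. With no replicate block the count was also 0 (62 probes at an unadjusted p under 0.05, beside 171 with the block), and the tests between times stayed at 0 under every alternative run, the unpaired fit included.

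Counts at the cutoff depended on the starting values. The deposited log10 ratios gave 36 higher and 26 lower probes, of which 12 and 5 were among the 15 and 11 reported, and 21 past 0.65 in both replicates. Normexp with loess gave 5, 3 and 1. Probes well above background in both channels gave 9, 7 and 5. Leaving out a replicate gave 49 to 73 higher and 48 to 59 lower. The cause of these shifts was not tested, apart from fewer probes or arrays by construction. The other alternatives kept the counts within 1.5 times. Of all 106 named genes, 73 kept their sign in every alternative and 33 did not. Of the 30 ranked genes, whose choice fixed that leaving out replicate A or B could not turn the sign, 29 kept it and TPO2 reached 0.01. YBL029W lay between 0.16 and 0.72, COS12 between 1.25 and 3.13, and PHM8 between −0.89 and −0.51.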

Other observations

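Some groups not described above differed little or in 1 replicate. Over all probes, 18.5% were higher in both replicates, 20.9% lower in both and 30.7% lower in A and higher in B. Of 25 cell wall genes, 11 (44%) were lower in both replicates and 0 higher in both. PIR3, a covalently linked wall protein gene, was lower by 1.20 in B and by 0.03 in A, and PIR1 by 0.54 in B and 0.04 in A. Of 33 genes of the respiratory chain and ATP synthase, 16 (48.5%) were lower in both and 3 higher in both, with a median of −0.06, while of 68 mitochondrial ribosomal protein genes 22 were higher in both and 5 lower in both, with a median of 0.04. Of 28 iron uptake genes, 17 were lower in A and higher in B. FRE1, the ferric reductase gene, was higher in both, by 0.21 and 0.98. Of 23 ergosterol genes, 9 were higher in both and 1 lower in both. The 138 cytosolic ribosomal protein genes had medians of 0.06 in A and −0.03 in B. Across all probes, 18 passed 0.65 in each replicate in opposite directions, 11 of them higher in A. Named after their values were seen, they include SFG1 (1.55 and −0.77) and MRH1 (1.11 and −1.29) beside CYC8 and LEU2.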
